A study of Mus musculus with 8 samples.

Results

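The genes described here are *Bnip3* and 9 other genes of mitophagy, the removal of damaged or surplus mitochondria by autophagy. They were chosen by name, as the receptors *Bnip3* and *Fundc1*, the kinase *Pink1*, the Atg8-type genes *Map1lc3a*, *Map1lc3b*, *Gabarapl1* and *Gabarapl2*, the adaptor *Sqstm1*, and *Becn1* and *Ulk1*, which start autophagy. All 10 were measured, each by 1 probe set that names that gene alone, out of 22180 genes on the arrays. RNA of 4 DTC tumors and 4 mammary tumors, which the paper describes as grown in NSG mice, hosts without mature T, B and NK cells, was hybridized to 1 Affymetrix MoGene 2.0 ST array per tumor.

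The tumors of both groups descend from BALB-neuT mice, in which an activated rat *Her2/neu* oncogene is driven by the MMTV promoter of mammary epithelium. DTC tumors arose from bone marrow holding disseminated tumor cells, with 3000000 to 5000000 marrow cells per injection according to the sample labels. The labels call these cells early, whereas the paper obtained tumors only from the marrow of old donors with invasive carcinoma. Mammary tumors came from 100000 injected tumor cells. The labels name the TUBO line for them, so that all 4 may stem from a single cell line, while the methods name primary mammary tumors. Cells of both kinds were injected under the skin in Matrigel with bFGF. Whether the tumors of a group grew in separate mice is not stated, so the tests rest on the variation among these 8 tumors alone, part of which may be technical. If the labels are right, traits of the TUBO line and of mammary tumors cannot be told apart.

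In mitophagy, a mitochondrion is marked by proteins that bind Atg8-type proteins on the growing autophagosome membrane. *Bnip3* and *Fundc1* encode receptors of the outer mitochondrial membrane that carry this binding motif themselves and are known to act in hypoxia. *Pink1* encodes a kinase that accumulates on depolarized mitochondria and sets off their tagging with ubiquitin, after which ubiquitin-binding adaptors such as p62, the product of *Sqstm1*, can link the mitochondrion to the membrane. *Bnip3* is a known target of HIF-1, which binds DNA at the core letters ACGTG or GCGTG.

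The windows before the start site are shown for *Bnip3*, for *Map1lc3b* and *Gabarapl1*, which differed in the other direction, and for *Fam162a*, whose profile over the tumors was most like that of *Bnip3*. Each window is the 250 bases before the start in RefSeq (GRCm38.p6), written 5′ to 3′ on the strand of the gene. Capitals mark ACGTG as well as GCGTG, on either strand. The *Bnip3* window is chr7:138909507-138909756 on the minus strand, that of *Map1lc3b* chr8:121590188-121590437 on the plus strand, that of *Gabarapl1* chr6:129532942-129533191 on the plus strand and that of *Fam162a* chr16:36071562-36071811 on the minus strand.
Bnip3: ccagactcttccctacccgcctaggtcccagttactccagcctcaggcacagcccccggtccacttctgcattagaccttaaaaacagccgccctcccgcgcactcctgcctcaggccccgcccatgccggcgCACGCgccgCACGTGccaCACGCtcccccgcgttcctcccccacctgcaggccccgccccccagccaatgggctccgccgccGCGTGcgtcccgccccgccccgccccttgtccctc
Map1lc3b: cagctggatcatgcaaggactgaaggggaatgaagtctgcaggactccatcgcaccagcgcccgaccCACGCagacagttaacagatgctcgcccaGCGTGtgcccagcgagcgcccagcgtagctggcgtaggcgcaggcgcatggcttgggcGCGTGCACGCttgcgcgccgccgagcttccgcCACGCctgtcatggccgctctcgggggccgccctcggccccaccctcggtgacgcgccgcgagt
Gabarapl1: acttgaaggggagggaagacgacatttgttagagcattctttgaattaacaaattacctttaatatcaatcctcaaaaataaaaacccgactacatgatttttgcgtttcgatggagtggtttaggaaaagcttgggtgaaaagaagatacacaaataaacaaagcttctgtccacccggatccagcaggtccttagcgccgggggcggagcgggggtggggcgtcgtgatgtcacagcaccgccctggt
Fam162a: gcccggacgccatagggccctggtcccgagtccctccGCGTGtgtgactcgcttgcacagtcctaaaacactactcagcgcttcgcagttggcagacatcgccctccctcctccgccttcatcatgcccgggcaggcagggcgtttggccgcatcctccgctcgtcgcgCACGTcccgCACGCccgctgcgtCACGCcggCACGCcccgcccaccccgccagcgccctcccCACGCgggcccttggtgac

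The *Bnip3* window held 1 CACGTG, a palindrome that lies 108 to 103 bases before the start and reads as ACGTG on both strands. It held GCGTG 3 times, with first bases 117, 99 and 35 bases before the start, so that 3 of the capital stretches stand within a short cluster. ACGTG was found in 16.6% of all 32851 promoter windows of this length, GCGTG in 28.2% and either in 38.6%. The *Map1lc3b* window held GCGTG 5 times and no ACGTG, and the *Gabarapl1* window held neither. *Fam162a* had ACGTG once and GCGTG 5 times. A window was listed for 8 of the 10 genes, and 5 of these held either form: *Bnip3*, *Pink1*, *Map1lc3b*, *Gabarapl2* and *Ulk1*. For *Fundc1* and *Ulk1* the window precedes a start inside the gene. The *Fundc1* window thus lies wholly, and that of *Ulk1* partly, within the gene. *Bnip3* was the only one of the 8 with CACGTG, which 6.02% of all windows held. The forkhead motif GTAAACA was in none of the 8 windows and in 3.17% of all. These are matches of letters and not measured binding.

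Arrays were similar across all probe sets, with pairwise correlations of 0.977 to 0.985 for DTC tumors, 0.979 to 0.988 for mammary tumors and 0.975 to 0.984 across groups. Of 8 markers of mammary carcinoma epithelium, the keratin *Krt8* averaged 10.62 and 10.36 on the log2 scale in DTC and mammary tumors and *Erbb2* 10.32 and 10.48, whereas *Krt19* averaged 4.80 and 4.68, below the median of every array. Of the 8, 5 averaged higher and 3 lower in DTC tumors. *Epcam* was the only one without overlap, at 11.25 and 11.63 (difference -0.38, adjusted p = 0.288 from limma). The mean log2 value over these 8 markers was 9.30 to 9.42 in DTC tumors and 9.30 to 9.38 in mammary tumors. Marker lists of macrophages, endothelium, skeletal muscle and fat cells overlapped between the groups as well. The mean of the fibroblast markers did not. Over 5 of them it was 8.21 to 8.80 in DTC tumors and 8.93 to 9.27 in mammary tumors, with differences of -1.23 for *Lum*, -0.85 for *Dcn*, -0.42 for *Pdgfra*, -0.08 for *Col3a1* and 0.02 for *Col1a1*. In such bulk samples, fewer cells of a type and less RNA per cell cannot be told apart.

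*Bnip3* rose in DTC tumors and was the 1 gene of the 10 that passed the test, whereas 8 of the other 9 averaged lower. That call depended on the settings: at the same difference it ended without the filter on interquartile range (limma adjusted p = 0.0561) and with a replicate block (limma adjusted p = 0.118). The threshold was that of the study's methods, limma with a Benjamini-Hochberg adjusted p no higher than 0.05 and an absolute log2 difference of 1 or more. It was applied to the 18877 probe sets whose interquartile range across the arrays exceeded 0.25. Of these probe sets 0.132% were called, 12 higher and 13 lower in DTC tumors. The filter left 3 of the 10 genes for this test, *Bnip3*, *Map1lc3b* and *Gabarapl1*. For the other 7, limma was run without the filter over all 41345 probe sets, and none of the 10 genes, *Bnip3* included, was called there. The median difference of the 10 genes was -0.10 on the log2 scale, against 0.01 over all genes, of which 51.7% averaged higher in DTC tumors.

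*Bnip3* stood at 9.75, 9.05, 8.54 and 9.11 on the log2 scale in DTC tumors 1 to 4, and at 6.86, 7.60, 7.61 and 6.81 in mammary tumors 1 to 4. Every DTC tumor was thus above every mammary tumor, and the gap between the lowest DTC tumor and the highest mammary tumor was 0.92. The means were 9.11 ± 0.50 (SD, n = 4) and 7.22 ± 0.45 (SD, n = 4). Their difference of 1.89, a 3.71-fold higher level, had a standard error of 0.29 and a 95% interval of 1.26 to 2.52 (adjusted p = 0.0391 from limma). A two-sided exact permutation test gave p = 0.0286, the smallest that 4 against 4 tumors allow. The study placed *Bnip3* among its top genes on these same tumors, so this test is not independent evidence of its direction. By qPCR, the paper also reported higher *BNIP3* mRNA in DTC tumors and in a cell line derived from a DTC tumor. Whether the tumors of the qPCR were those of the arrays is not stated.

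Within the groups, *Bnip3* spread widely. DTC tumor 1 was highest and DTC tumor 3 lowest among DTC tumors, and tumors 2 and 4 differed by less than 0.1. Mammary tumors fell into an upper pair, numbers 2 and 3, and a lower pair, numbers 1 and 4, each with values closer together than the SD of the group. Omitting any single tumor kept the difference between 1.68 and 2.08, but the adjusted p passed only without DTC tumor 3 (0.0376 from limma). In limma it was 0.0841, 0.0918 and 0.0654 when DTC tumor 1, 2 or 4 was omitted, and 0.124, 0.0620, 0.0678 and 0.0980 when mammary tumor 1, 2, 3 or 4 was omitted.

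**Figure D1:**
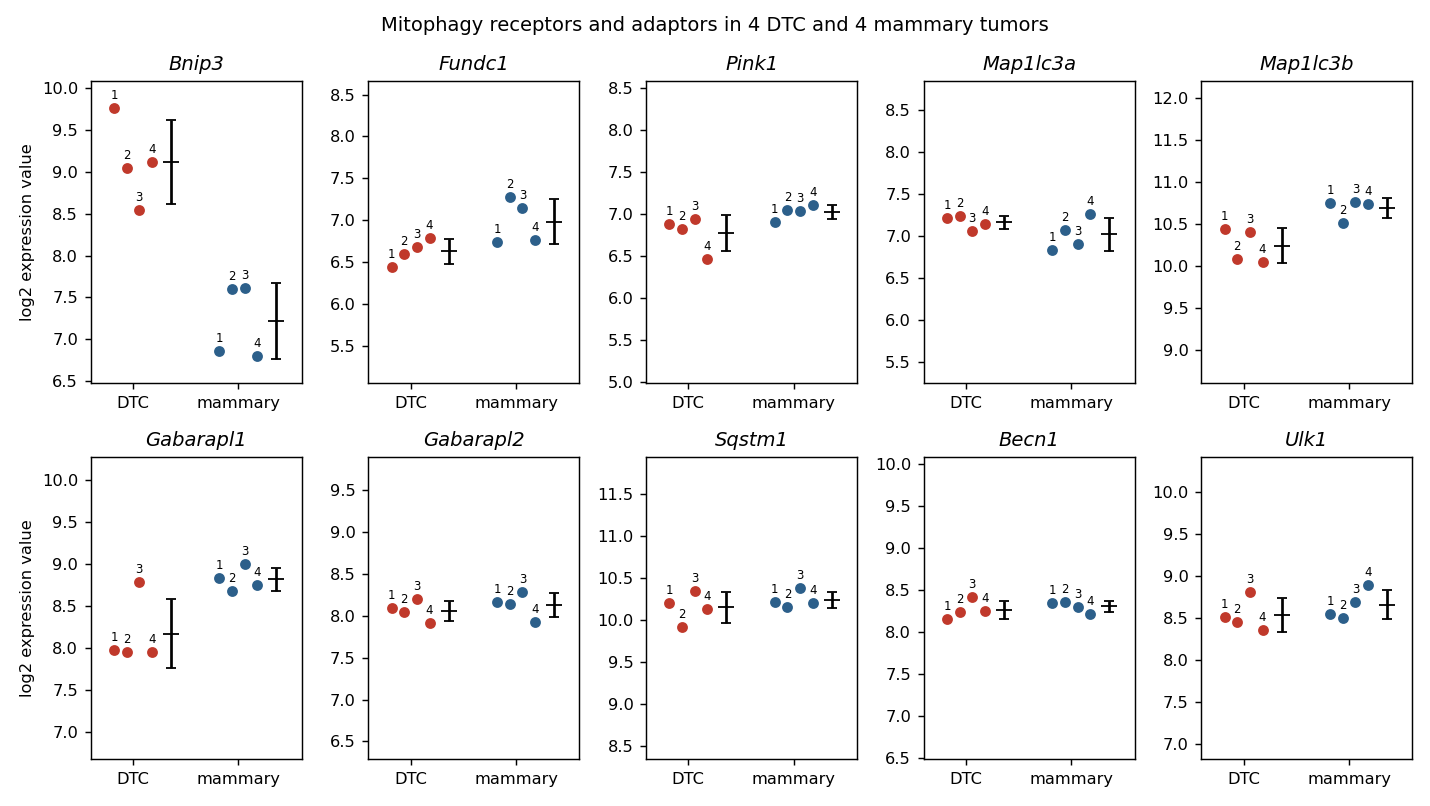
Log2 expression value (vertical axis, the same span in every panel) of the 10 genes in DTC tumors (red) and mammary tumors (blue). Each point is 1 tumor with its number, and the black bar beside each group is the mean ± SD (n = 4). Only *Bnip3* has all DTC tumors far above the mammary tumors, *Map1lc3b* has them all below, and DTC tumor 3 stands apart for *Gabarapl1*.

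*Fundc1* and *Pink1*, the other genes that mark mitochondria, did not share the direction of *Bnip3*. *Fundc1* stood at 6.44, 6.60, 6.69 and 6.80 in DTC tumors 1 to 4 and at 6.75, 7.28, 7.14 and 6.76 in mammary tumors 1 to 4. DTC tumor 4 lay just above the lowest mammary tumors, so the groups overlapped by 0.05. Its difference was -0.35 (95% interval -0.68 to -0.02, unfiltered adjusted p = 0.404 from limma, exact permutation p = 0.0857). *Fundc1* lies on the X chromosome, whose 378 expressed protein-coding genes had a median difference of -0.08.

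*Pink1* stood at 6.88, 6.83, 6.94 and 6.47 in DTC tumors and at 6.91, 7.05, 7.04 and 7.11 in mammary tumors. DTC tumor 4 was the lowest of all, and DTC tumor 3 reached into the mammary range. The difference was -0.25 (95% interval -0.52 to 0.02, unfiltered adjusted p = 0.486 from limma, exact permutation p = 0.0571), and -0.14 when DTC tumor 4 was left out.

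Among the Atg8-type genes, whose products are joined to lipid on the autophagosome membrane and are the partners that mitophagy receptors bind, *Map1lc3b* and *Gabarapl1* averaged lower in DTC tumors, but neither passed over all probe sets. *Map1lc3b* encodes LC3B, the usual marker of autophagosomes. It stood at 10.44, 10.09, 10.40 and 10.05 in DTC tumors and at 10.75, 10.51, 10.76 and 10.74 in mammary tumors. The groups did not overlap, with a gap of 0.07 between DTC tumor 1 and mammary tumor 2. Its difference was -0.44 (standard error 0.16, 95% interval -0.81 to -0.08, adjusted p = 0.272 from limma), and the exact permutation p was 0.0286.

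*Gabarapl1*, of the GABARAP branch of the family, stood at 7.98, 7.96, 8.79 and 7.95 in DTC tumors and at 8.84, 8.68, 9.005 and 8.76 in mammary tumors. DTC tumors 1, 2 and 4 were close to one another and below every mammary tumor, and DTC tumor 3 lay inside the mammary range. Over all tumors the difference was -0.65 (standard error 0.21, 95% interval -1.12 to -0.18, adjusted p = 0.233 from limma, exact permutation p = 0.0857). With that tumor left out it was -0.86 (adjusted p = 0.0778 from limma). The mean log2 value of the 5 fibroblast markers also differed, by -0.51, with *Lum* and *Dcn* the furthest apart. *Lum* was the only one of the 5 without overlap, and none passed limma. This mean placed DTC tumor 3 at 8.75, between DTC tumors 2 (8.72) and 4 (8.80). Their part in the values of *Map1lc3b* and *Gabarapl1* was not tested.

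*Map1lc3a* and *Gabarapl2* differed little. *Map1lc3a*, the LC3A gene, ranged from 7.06 to 7.23 in DTC tumors and from 6.83 to 7.26 in mammary tumors, a difference of 0.14 (95% interval -0.11 to 0.40, unfiltered adjusted p = 0.709 from limma). It lies on chromosome 2, where 999 expressed protein-coding genes had a median difference of 0.11. *Gabarapl2* ranged from 7.91 to 8.19 and from 7.93 to 8.28, a difference of -0.07 (95% interval -0.31 to 0.18, unfiltered adjusted p = 0.878 from limma). The differences of the Atg8-type genes thus ranged from -0.65 to 0.14. Only that of *Map1lc3a* was above 0, and its interval included 0.

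For the adaptor and the 2 genes that start autophagy, all intervals included 0. *Sqstm1* ranged from 9.91 to 10.35 in DTC tumors and from 10.16 to 10.38 in mammary tumors, a difference of -0.09 (95% interval -0.34 to 0.17, unfiltered adjusted p = 0.837 from limma). *Becn1*, which encodes a subunit of the lipid kinase complex of early autophagosomes, ranged from 8.16 to 8.42 and from 8.22 to 8.36, a difference of -0.04 (95% interval -0.25 to 0.17, unfiltered adjusted p = 0.915 from limma). *Ulk1*, the kinase that receives signals from mTOR and AMPK, ranged from 8.35 to 8.81 and from 8.5 to 8.88, a difference of -0.12 (95% interval -0.42 to 0.18, unfiltered adjusted p = 0.805 from limma). The small differences of *Map1lc3a*, *Gabarapl2*, *Sqstm1*, *Becn1* and *Ulk1* depended on single tumors, and with 1 left out lay between 0.08 and 0.23, -0.13 and -0.02, -0.15 and -0.01, -0.09 and -0.01, and -0.21 and -0.04.

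**Figure D2:**
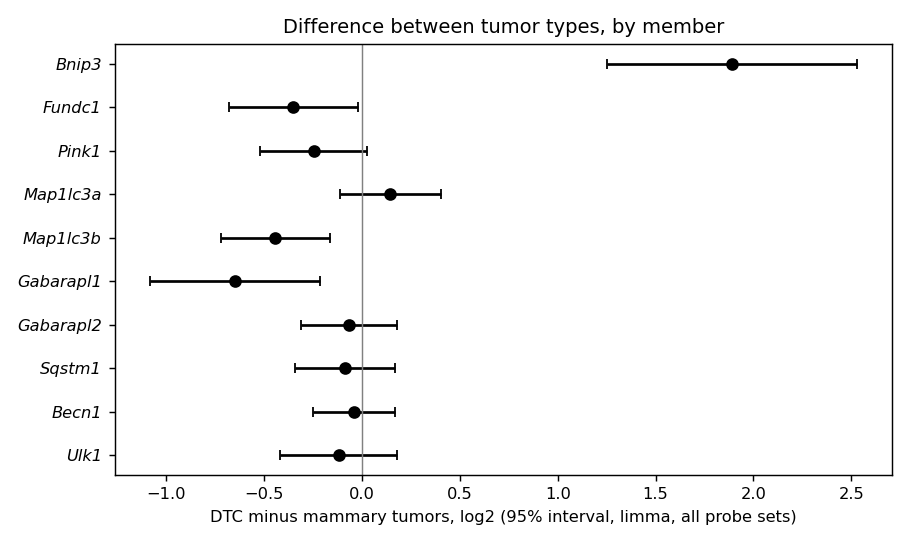
Difference between DTC and mammary tumors (horizontal axis, log2) for each of the 10 genes, with the 95% interval from limma over all probe sets. *Bnip3* at 1.89 stands alone on the right, and the intervals of *Fundc1*, *Map1lc3b* and *Gabarapl1* lie below 0. In this fit over all probe sets no gene of the 10 has an adjusted p at the threshold, *Bnip3* (0.0561 from limma) included.

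Counted without any filter, 1 of the 10 genes did not overlap and was higher (*Bnip3*) and 1 did not overlap and was lower (*Map1lc3b*). Over the 22180 genes of the arrays, 3.89% did not overlap and were higher in DTC tumors and 5.76% were lower. A single gene in either direction is no result about the 10 genes as a list. *Bnip3* was 18th by p among the 18877 tested probe sets.

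The profiles of the 10 genes were compared over the 8 tumors, as a description in which points share the group difference. *Bnip3* correlated at -0.83 with *Gabarapl1* and at -0.79 with *Map1lc3b*. After the group means were subtracted these values were -0.48 and -0.09, so the relation with *Map1lc3b* was one between groups and not among tumors of a group. *Gabarapl1* correlated after subtraction at 0.76 with *Sqstm1*, 0.75 with *Becn1*, 0.70 with *Ulk1* and 0.62 with *Gabarapl2*. DTC tumor 3 was the highest DTC tumor for all 5 of these genes. Without it, over 7 tumors, the correlations were 0.64 with *Sqstm1*, -0.08 with *Becn1*, 0.15 with *Ulk1* and 0.60 with *Gabarapl2*. Those with *Becn1* and *Ulk1* rested on that tumor. The correlation of *Gabarapl1* with *Bnip3* after subtraction also turned in sign, to 0.23, when DTC tumor 3 was omitted.

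Genes whose profile over the 8 tumors was most like that of *Bnip3* were ranked by Pearson's correlation among the 8281 other genes past the interquartile filter. The first was *Fam162a* (0.97), a mitochondrial protein induced by hypoxia. It was followed by *Higd1a* (0.97), a small protein of the inner mitochondrial membrane, *Dbf4* (0.97), the partner of a replication kinase, *Gbe1* (0.97), the branching enzyme of glycogen, and *Pdk3* (0.97), a kinase that inhibits pyruvate dehydrogenase. *Fam162a* stood at 10.24, 10.06, 10.05 and 9.99 in DTC tumors and at 8.99, 9.43, 9.35 and 8.88 in mammary tumors. Mammary tumors 2 and 3 were thus the upper pair here too. Their differences were 0.92 for *Fam162a*, 1.04 for *Higd1a*, 0.73 for *Dbf4*, 0.85 for *Gbe1* and 0.67 for *Pdk3*, and the adjusted p of the 5 genes lay between 0.0677 and 0.130 in limma, so none was called. All 8 points share the difference between the groups, so these correlations are a description only.

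**Figure D3:**
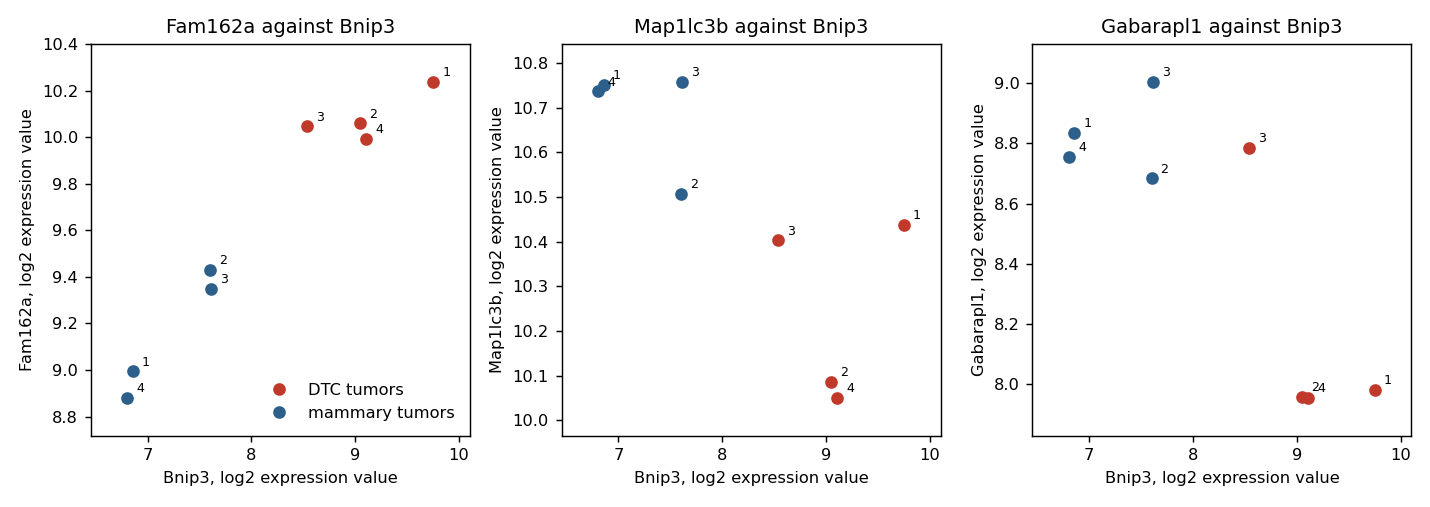
Log2 expression value of *Fam162a*, *Map1lc3b* and *Gabarapl1* (vertical axes) against that of *Bnip3* (horizontal axes), 1 point per tumor with its number, DTC tumors in red and mammary tumors in blue. Over the 8 tumors, *Fam162a* correlates with *Bnip3* at 0.97, *Map1lc3b* at -0.79 and *Gabarapl1* at -0.83, values that include the difference between the groups. After group means were subtracted, *Map1lc3b* was at -0.09 and *Gabarapl1* at -0.48, or 0.23 without DTC tumor 3. That tumor has *Gabarapl1* at 8.79.

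Around these 10 genes, 6 further lists of the pathway held 93 measured genes of 98 written. *Bnip3l*, the closest relative of *Bnip3*, is not analysed here. None of the 93 passed limma over all probe sets, with or without the fold threshold. Of the 32 that the interquartile filter left, 4 were higher and 7 lower with an unadjusted p up to 0.05, while 6.47% of all tested probe sets were higher and 8.28% lower at that level. Without a filter, values in DTC tumors lay wholly above those in mammary tumors for 5 genes and wholly below for 11, which is 5.38% and 11.8% of the 93 against the shares over all genes given above. Of the 11, 3 lie on chromosome 14, namely *Atg14*, *Ctsb* and *Vdac2*. On chromosome 14 the median difference over 427 expressed protein-coding genes was -0.38, with 85.7% of them lower in DTC tumors. Off chromosome 14, chosen for this count after the values were seen, 8 of 90 pathway genes (8.89%) and 4.97% of all genes did not overlap and were lower.

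Of 16 other receptors, ligases and adaptors of mitophagy, 9 averaged higher and 7 lower, with a median difference of 0.01. *Nipsnap2* and *Nipsnap1* encode matrix proteins that are displayed on damaged mitochondria. *Nipsnap2* stood at 8.78 to 8.94 in DTC tumors and 9.20 to 9.31 in mammary tumors, with no overlap and a difference of -0.40 (adjusted p = 0.255 from limma). *Nipsnap1* differed by -0.37 with overlapping groups. *Nbr1*, an adaptor related to p62, stood at 9.39 to 9.69 and 9.75 to 9.96, a difference of -0.34 (adjusted p = 0.333 from limma).

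Of 14 further genes of the Atg8 family and its conjugation, 6 averaged higher and 8 lower, with a median of -0.06. *Atg4c* (-0.51) and *Atg4a* (-0.37) encode proteases that trim Atg8-type proteins before they are joined to lipid, and *Tecpr1* (-0.29, or -0.10 without DTC tumor 4) acts at the joining of autophagosome and lysosome. None of these 3 was free of overlap. *Gabarap* itself, named after its values were seen, averaged 11.19 ± 0.02 (SD, n = 4) and 11.35 ± 0.02 (SD, n = 4) with no overlap. Its difference of -0.15 was kept out of the test by the interquartile filter, and the unfiltered adjusted p was 0.511 from limma.

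Of 18 genes of initiation and nucleation, 6 averaged higher and 12 lower, with a median of -0.06. Over all 8 tumors, *Prkaa2*, a catalytic subunit of AMPK, had the largest difference of the 93 genes. It stood at 6.56, 6.66, 6.81 and 6.87 in DTC tumors and at 7.31, 7.42, 7.48 and 8.32 in mammary tumors, where number 4 was the highest. The difference was -0.91 (standard error 0.23, adjusted p = 0.136 from limma). Without mammary tumor 4 it was -0.68, smaller in size than that of *Vdac2* (-0.70) with the same tumor left out. *Vmp1*, a membrane protein needed for autophagosome formation, stood at 6.05 to 6.73 and 4.44 to 5.88, a difference of 0.88 (standard error 0.31, adjusted p = 0.258 from limma), and mammary tumor 4 was its lowest value. Without that tumor the difference was 0.55. *Atg14*, a subunit of the Becn1 complex, differed by -0.29 and lies on chromosome 14.

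Of 17 genes of the lysosome and of fusion with it, 13 averaged lower and 4 higher, and the median of -0.12 was the lowest of the 6 lists. *Ctsb*, a lysosomal protease, stood at 10.99 to 11.38 in DTC tumors and 11.40 to 11.78 in mammary tumors, a difference of -0.42 (adjusted p = 0.282 from limma). It lies on chromosome 14. *Mcoln1*, a calcium channel of the lysosome, differed by -0.36 (adjusted p = 0.331 from limma) and *Lamp2*, a protein of its membrane, by -0.34 (adjusted p = 0.341 from limma).

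Of 12 partners and regulators of *Bnip3*, 8 averaged higher and 4 lower, with a median of 0.06. *E2f1*, a transcription factor of the cell cycle, stood at 7.005, 7.29, 6.70 and 7.09 in DTC tumors and at 6.59, 6.56, 6.58 and 6.56 in mammary tumors, a difference of 0.45 with no overlap (adjusted p = 0.270 from limma). *Bcl2* (-0.26, or -0.16 without DTC tumor 1 or mammary tumor 4) and *Bcl2l1* (0.19, or 0.07 without mammary tumor 2), whose products bind the Bnip3 protein, had overlapping groups. *E2f1* and *Bcl2l1* lie on chromosome 2, where expressed protein-coding genes had a median difference of 0.11. *Hif1a* mRNA, named after its value was seen, differed by 0.06 with overlapping groups.

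Of 16 genes of mitochondrial mass and structure, 5 averaged higher and 11 lower, with a median of -0.10. Of the porins of the outer membrane, *Vdac1* and *Vdac2* differed in opposite directions without overlap, while *Vdac3*, named after its values were seen, differed by -0.16 with overlapping groups. *Vdac1* stood at 10.92 to 11.03 in DTC tumors and 10.52 to 10.71 in mammary tumors, a difference of 0.36 (adjusted p = 0.289 from limma). *Vdac2*, on chromosome 14, stood at 8.96 to 9.44 and 9.60 to 10.06, a difference of -0.67 (adjusted p = 0.143 from limma). *Hspd1*, the chaperonin of the mitochondrial matrix, differed by 0.37 with no overlap (adjusted p = 0.329 from limma).

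**Figure D4:**
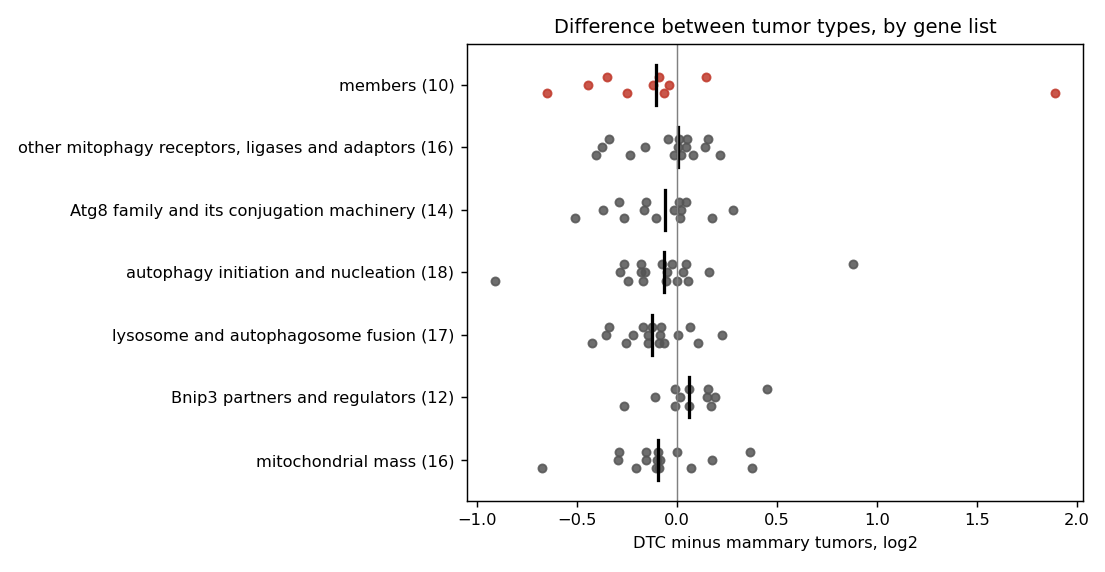
Difference between DTC and mammary tumors (horizontal axis, log2) of each gene in the list of 10 (red) and in the 6 further lists (grey), with the number of measured genes in parentheses. Black bars are list medians, from -0.12 for the lysosome to 0.06 for the partners of *Bnip3*. *Bnip3* at 1.89 lies outside the range of -0.91 to 0.88 of the further lists. The lower end is *Prkaa2* (-0.68 without mammary tumor 4) and the upper end is *Vmp1* (0.55 without mammary tumor 4).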

How the data were processed

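The arrays were loaded by the authors in oneChannelGUI and normalized by sketch-quantile normalization, and the log2 values they deposited, 1 per probe set, were used as given. The probe summarization method is not given in the sources used here. Probe sets were named from the platform annotation. Genes were read from the probe set with the highest mean among those with 1 symbol. List genes under older symbols were matched through RefSeq (GRCm38.p6), which also gave chromosomes and promoter windows. Expressed protein-coding genes had a mean of at least 5. limma 3.58.1 in R 4.3.3 (lmFit, eBayes, Benjamini-Hochberg) compared the groups, and was tested on simulated data. Single genes were compared over all 70 divisions of the 8 tumors into 4 and 4 by a two-sided exact permutation test, unadjusted. No correction was made for array date, which the sources used here do not give, and the number of arrays limits the precision.

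Members and lists were chosen with earlier results of these data known. Named from each list were the 3 genes with the largest absolute difference, and the 5 genes most like *Bnip3*. Others are said to be named later. Alternatives changed the interquartile filter, the treatment of dim or multiple probe sets, the normalization, the variance model and the array weights, added a block for the replicate number, or omitted single tumors.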

Additional observations from a re-analysis of the deposited data

Results flagged for a closer look

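In 76 groups of 4 tumors (2 groups for each named gene), 5 held a tumor set apart from the other 3 by Dixon's ratio, which chance gives in about 1 of 20 groups. *Gabarapl1* in DTC tumor 3 was 8.79 against 7.95 to 7.98 in the other DTC tumors. *Map1lc3b* in mammary tumor 2 was 10.51 against 10.74 to 10.76. *Prkaa2* in mammary tumor 4 was 8.32 against 7.31 to 7.48. *Mcoln1* in DTC tumor 3 was 8.41 against 8.12 to 8.17. *Hspd1* in DTC tumor 2 was 10.17 against 9.79 to 9.83.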

How the results depend on the processing

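*Bnip3* was higher in DTC tumors under all 18 alternatives run, and its call was kept under 9. At an unchanged difference of 1.89 the call ended when no interquartile filter was used (limma adjusted p = 0.0561) and when a replicate block was added (0.118). With 1 tumor left out, the difference lay between 1.68 and 2.08 and the adjusted p between 0.0376 and 0.124. The number of the 10 genes called was accordingly 0 without the filter, 0 with the block, and 0 to 1 with 1 tumor left out. It was 1 without the fold threshold. *Map1lc3b* and *Gabarapl1* were lower in every alternative that tested them and called in none, with adjusted p from 0.116 to 0.493 and from 0.0778 to 0.436. All probe sets called numbered 25, and 15 with an interquartile range above 0.5, 65 without dim probe sets, 86 when each gene kept 1 probe set, 57 under a robust, trended variance, 46 under array weights, 7 under the replicate block and 9 to 47 with 1 tumor left out. Leaving out probe sets shortens the list over which p is adjusted and also altered the unadjusted p. The causes of the shifts in these counts were not tested. Deviations from the group means correlated at 0.0074, 0.015, 0.17 and 0.19 between tumors with the same number. Each tumor was also compared with the 4 tumors of the other group only, and 4 of the 8 correlated best with their own number. Whether the numbers mark pairs was not tested, and the main test treated the tumors as unpaired. An average over several probe sets of a gene was not run, since each of the 10 has 1. Median centring, quantile normalization and cyclic loess moved the median of all probe sets by less than 0.1. The 10 genes were above the median of the array on all 8 arrays. Whether their signal was clear of background was not tested.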

Other observations

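After group means were subtracted, the 8281 other genes past the interquartile filter were ranked by their correlation with *Bnip3*. The highest were *Miip* (0.98), *Nefh* (0.96), *Hcn2* (0.95), *Olfm2* (0.94) and *D930007P13Rik* (0.94). These values were picked as the highest of many genes over only 8 tumors, so they are a description only. The differences of these genes between the groups were small, from -0.13 to 0.32. Their mean levels were between 4.21 and 6.14 on the log2 scale, where the medians of the arrays were 5.36 to 5.42. None of the 5 genes most like *Bnip3* over all 8 tumors was among them.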
